A study of Homo sapiens with 20 samples.

Results

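Guides in row 1 of the guide grids of the A375 dual titration library are described here. A375 is an established human melanoma cell line. The guides carry running numbers from 1 to 6211. The first 4719 numbers form 39 consecutive grids of 11 rows by 11 columns, and the first 11 numbers of each grid are its row 1. This gave 429 guides, 11 in each of 39 grids, of 6211 guides in the table. The rule used numbers only and no measured value. The labels call the library a dual titration and do not say what was titrated, so columns 1 to 11 are places in the numbering and not known doses. The tables used here hold guide numbers without genes or sequences, so guides are given by number and no sequence is shown.

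Cas13d is an RNA-guided nuclease of bacterial CRISPR systems. Its guide RNA pairs with a complementary stretch of a target RNA, and the nuclease then cuts that RNA and leaves the genome intact. In a pooled screen each cell carries a guide from a lentiviral library. When a guide lowers a transcript that the cells need for growth, or otherwise slows growth, cells with that guide become rarer, and so does the guide's DNA in the culture. Mismatches between guide and target are known to weaken cutting by Cas13d, and whether the guides of this library carry any is not given. RfxCas13d is the form from Ruminococcus flavefaciens, used here with a nuclear localisation.

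The day 14 group held 3 libraries of A375 cells that carried nuclear RfxCas13d under doxycycline control and were harvested 14 days after induction. The day 0 group held 3 libraries of the same engineered cells with the same guides, harvested at the start of induction. The labels give doxycycline induction as the treatment of both groups. Cells of both groups had been infected in separate replicates and selected with puromycin. Without a culture that was grown for 14 days and left uninduced, the action of the nuclease and the time in culture cannot be told apart, and the labelled batch follows the day. The values were normalised signal per guide. Whole reads could be read off the steps between values, and they came to 746951, 873999 and 494672 reads per library at day 14 and 1342178, 868384 and 1684142 reads at day 0. In row 1 the median guide had 154, 209 and 113 reads at day 14 and 213, 137 and 279 reads at day 0. Only 2 of the 2574 values of row 1 lay at the lowest level of their library, so the floor of the measurement touched few of these guides.

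Along row 1 the guides were lost toward the last columns. The mean log2 change from day 0 to day 14 over the 39 grids was 0.13 ± 0.07 at column 1, 0.09 ± 0.13 at column 2 and -0.03 ± 0.05 at column 3 (SD over 3 day 14 libraries). It was -0.26 ± 0.08 at column 4, -0.26 ± 0.11 at column 5, -0.32 ± 0.07 at column 6 and -0.48 ± 0.15 at column 7. It was -0.60 ± 0.18 at column 8, -0.93 ± 0.07 at column 9, -1.04 ± 0.24 at column 10 and -1.69 ± 0.05 at column 11. Neighbouring columns from 4 to 6 therefore differed by less than the spread between libraries, and so did columns 1 and 2 and columns 7 and 8. Columns 2 and 3, and columns 9 and 10, differed by more than the smaller of their SDs and less than the larger. Column 11 lay below column 10 in each of the 3 libraries. On the linear scale the geometric mean at day 14 was 109% of that at day 0 at column 1, 71.7% at column 7, 48.6% at column 10 and 30.97% at column 11. Day 0 levels did not follow the columns: the median over the grids of a column, each guide taken at its median library, lay between 168.5 and 194.3 at day 0 in all 11 columns, while at day 14 it was 194.9 at column 1 and 63.1 at column 11.

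The signs of these means rest on how libraries are scaled. The values were used as deposited, on which the guides numbered after the grids had a median log2 change of 0.03. Scaling by a trimmed mean over all guides would raise every change by 1.41, which puts the means of columns 1 to 10 above 0 and that of column 11 at -0.28. The distance between columns does not depend on scaling. Each guide was therefore also compared with the column 1 guide of its own row and grid in the same libraries, a contrast in which any factor of a whole library cancels.

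By limma with Benjamini-Hochberg adjustment over all 6211 guides, 87 of the 429 guides fell by day 14 and 14 rose. These are 20.3% and 3.26% of row 1, against 51.2% and 1.63% of all guides in the table. The median change was -0.24 in row 1, -2.45 in rows 2 to 11 and -1.15 over all guides. In rows 2 to 11, 2939 guides fell, or 68.5%. Among the 1372 guides after the grids, 73 fell, or 5.32%. Row 1 thus lay between the guides after the grids and the other rows in its share of guides lost. With trimmed-mean scaling 30 guides of row 1 fell and 269 rose, and with total signal 48 fell and 134 rose.

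The number of guides that fell was 0 of 39 at column 1, 2 at column 2, 2 at column 3, 4 at column 4, 3 at column 5, 5 at column 6 and 4 at column 7. It was then 13 at column 8, 13 at column 9, 17 at column 10 and 24 at column 11. The count of 0 at column 1 was the same by voom on recovered reads, and 1 guide there was lower at an unadjusted p under 0.05. Columns 8 to 11 held 67 of the 87 guides that fell, which is 42.9% of their 156 guides, while 8.55% of the 234 guides of columns 2 to 7 fell. The cut between columns 7 and 8 was not planned and lies where these counts rose, so the shares only restate the counts. The mean change showed no such break there, with -0.48 ± 0.15 at column 7 and -0.60 ± 0.18 at column 8 (SD over 3 day 14 libraries). Of the 20 guides that fell in columns 2 to 7, 11 were in grids 7 and 27 and 9 in all other grids. The median change of the 87 guides was -2.04, and they ranged from -5.55 to -0.77. In 119 guides of row 1, or 27.7%, every day 14 library lay below every day 0 library, against 55.1% of all guides. In 35 guides, or 8.16%, every day 14 library lay above every day 0 library, against 3.9% of all guides.

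In the scale-free contrast, 87 of 390 guides of row 1 fell further than the column 1 guide of their row by limma, and 4 rose relative to it. This is 22.3% lower, against 62.5% of such contrasts over all rows, of which 0.373% were higher. By column the lower guides numbered 2, 1, 5, 7, 4, 7, 10, 13, 15 and 23 of 39 from column 2 to column 11. The mean contrast was -0.05 at column 2, -0.39 at column 4, -0.73 at column 8 and -1.82 at column 11. The counts were again higher over columns 8 to 11, and column 11 held the most. All contrasts of a row share its column 1 guide, so noise in that guide moves them together. In grid 28, with column 1 at 1.01, 3 guides fell and 8 were lower than column 1. In grid 26, with column 1 at -0.76, 5 guides fell and 1 was lower than column 1.

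The grids differed widely in the shape of row 1. In 13 of the 39 grids no guide of row 1 fell by limma, in 16 grids 1 to 3 guides fell, and in 10 grids 4 or more fell. In those 13 grids, 4 guides were lower at an unadjusted p under 0.05 and 0 fell by voom. An onset was taken as the lowest column from which every later guide of the row fell. It existed in the 24 grids whose column 11 guide fell. It was column 11 in 9 grids, column 10 in 5, column 9 in 4, column 8 in 5 and column 2 in 1 grid, with 0 such onsets at columns 3 to 7. The rule needs an unbroken run, so a guide that missed the threshold moved the onset later or left earlier falls out. The first guide that fell was at column 4 in grids 1 and 33 and at column 5 in grids 5 and 24. It was at column 6 in grids 3, 26 and 28 and at column 7 in grid 14. In grid 33, 5 guides fell and the onset was column 10. The lowest value of the row was at column 11 in 18 grids and at column 9 or 10 in 10 grids. The rank correlation of the change with the column, over the 11 guides of a grid, had a median of -0.64 and was below 0 in 33 of 39 grids. It ran from -0.93 in grid 4 to 0.71 in grid 17.

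The 4 grids with the lowest means over columns 9 to 11 were grids 19, 27, 20 and 14. The column 11 guide of grid 19, uid_2189, had a signal of 13.8, 5.60 and 3.58 in the day 14 libraries, against 290.0, 220.0 and 300.1 in the day 0 libraries. Its log2 change was -5.36 ± 0.59 (SE, 3 libraries a day; limma adjusted p = 9.55e-06). All day 14 values lay far below all day 0 values, and the loss was steep along the row: the changes of columns 1 to 7 lay between -0.11 and 0.78, those of columns 8, 9 and 10 were -2.09, -2.65 and -2.17, and column 11 followed with the lowest.

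Grid 20 had the same late onset. Its changes were between -1.14 and 0.30 in columns 1 to 7 and then -3.81, -2.97, -2.95 and -3.85 in columns 8 to 11. Its column 11 guide, uid_2310, had 5.92, 20.2 and 8.75 at day 14, against 138.8, 146.6 and 155.0 at day 0. Here column 8 was about as low as column 11, whose change had an SE of 0.57. In grid 14 the changes of columns 9, 10 and 11 were -2.86, -3.12 and -2.77, and column 7, at -1.45, also fell, while column 8 between them was at 0.19. Its column 11 guide, uid_1584, had 25.6, 42.4 and 48.8 at day 14, against 254.1, 212.3 and 311.3 at day 0, with no overlap.

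Grid 7 and its counterpart grid 27 had falls from column 2 on, although in grid 27 the onset as defined above was column 10, since its column 9 guide, at -1.10, did not pass the test. The column 5 guide of grid 27, at -1.06, did not pass either. In grid 7, which had the earliest onset of the 39 grids, the column 1 guide was at -0.15 and the guides of columns 2 to 11 all fell, with changes of -1.79, -1.75, -3.12, -3.36, -3.42, -2.95, -3.21, -2.31, -3.22 and -2.77. The loss was thus near its full size from column 4 on. The column 4 guide of grid 7, uid_0730, had 19.7, 29.4 and 23.0 at day 14, against 234.9, 174.9 and 212.6 at day 0. Its change was -3.12 ± 0.47 (SE, 3 libraries a day; limma adjusted p = 0.000105). In grid 27, 8 guides fell, with -1.77 already at column 2 and -4.36 and -4.66 at columns 10 and 11. Its column 11 guide, uid_3157, had 1.98, 7.13 and 11.3 at day 14, against 144.7, 167.2 and 106.4 at day 0, and the value of 1.98 is the lowest level of that library. Without grids 7 and 27, the mean change was -0.11 at column 4, -0.19 at column 6, -0.47 at column 8 and -1.58 at column 11.

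The largest single step between neighbouring columns was in grid 4, where the change was -0.86 at column 10 and -5.55 at column 11, a step of -4.70. The guides of columns 8 and 9 of that grid had also fallen, at -1.25 and -1.91, so the loss did not begin at column 11. The column 11 guide, uid_0374, had 1.98, 5.60 and 7.46 at day 14, against 191.4, 199.4 and 225.3 at day 0. The value of 1.98 is the lowest level of that library, so the size of this fall is uncertain. On the deposited values that guide was the lowest of all row 1, at -5.55 ± 0.56 (SE, 3 libraries a day; limma adjusted p = 4.49e-06). The largest downward step of a row led into column 11 in 13 of 39 grids.

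The grids in the middle of the order, 21, 11 and 3, had weaker ends. Their column 11 changes were -1.92 ± 0.42, -1.35 ± 0.43 and -2.28 ± 0.43 (SE, 3 libraries a day), with limma adjusted p-values of 0.00168, 0.0186 and 0.000627. The guide of grid 21, uid_2431, had 35.4, 57.0 and 77.3 at day 14, against 158.0, 222.6 and 241.0 at day 0. The guide of grid 3, uid_0253, had 32.5, 43.2 and 68.2 at day 14, against 188.1, 186.5 and 309.8 at day 0. In both guides the days did not overlap, but day 14 levels remained well above the floor. In grid 3 the changes of columns 1 to 10 lay between -0.96 and 0.26. The call of grid 11, at uid_1221, was lost without day 0 replicate 2 (limma adjusted p = 0.0759), without day 0 replicate 3 (0.0898) and with total signal scaling (0.254). With trimmed-mean scaling the calls of all 3 grids were lost, with limma adjusted p-values of 0.282 in grid 21, 0.899 in grid 11, where the value had the other sign, and 0.0845 in grid 3. In grid 21 column 8, at -1.08, fell and column 9, at -1.11, did not pass the test.

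The 4 grids with the highest ends were grids 9, 37, 2 and 17, in which 0 guides of row 1 fell by limma. The column 11 guide of grid 37, uid_4367, had 998.0, 500.1 and 342.2 at day 14, against 194.0, 222.6 and 214.8 at day 0. It rose by 1.40 ± 0.42 on the log2 scale (SE, 3 libraries a day; limma adjusted p = 0.0131), and it also rose relative to its column 1 guide, by 1.20 with an adjusted p of 0.0495. All day 14 values exceeded all day 0 values, although they differed among themselves by more than the day 0 values did. The first of these calls was lost without day 0 replicate 1 (limma adjusted p = 0.0607) and without day 0 replicate 3 (0.0526). The column 11 guide of grid 2, uid_0132, had 219.5, 362.1 and 333.1 at day 14, against 174.7, 173.6 and 156.5 at day 0, with a change of 0.83 and an adjusted p of 0.0438 from limma, but its contrast with column 1 did not pass (adjusted p = 0.142). Its call was lost without any single library other than day 14 replicate 1, with limma adjusted p-values from 0.0917 to 0.133. In grids 9 and 17 the column 11 changes were -0.07 and 0.30, and the days overlapped.

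The 14 guides that rose were concentrated in 2 grids. Grids 11 and 31 held 8 of them, at columns 2, 4, 6 and 8 in both grids, and the other 6 were in grids 2, 9, 22, 28 and 37. In grid 11 the changes of columns 1 to 11 were 0.50, 1.22, 0.77, 1.06, 0.94, 1.18, -0.67, 0.87, -0.71, -1.56 and -1.35. In grid 31 they were 0.08, 0.93, 0.50, 1.22, 0.46, 0.99, -0.58, 1.27, -0.99, -1.79 and -2.92. On the deposited values, column 7 was below 0 in both grids between neighbours that were above it, but neither column 7 guide passed the test. Columns 10 and 11 fell in both grids. The column 8 guide of grid 31, uid_3638, had 289.4, 351.4 and 256.9 at day 14, against 139.7, 136.3 and 98.2 at day 0, the lowest adjusted p of the guides that rose, at 0.00356 by limma. The guides uid_1216, uid_3634, uid_1212 and uid_1214, next in that order, had day 14 means of 351.6, 421.3, 325.7 and 319.3 and day 0 means of 153.5, 184.3, 137.5 and 152.0, with no overlap in any of them. Relative to column 1 of their rows, uid_3638 and uid_3634 rose, by 1.19 and 1.15, while uid_1216, uid_1212 and uid_1214 did not pass that test. Without day 0 replicate 2 the rise of uid_3634, uid_1212 and uid_1214 missed the threshold, with limma adjusted p-values of 0.0632, 0.0509 and 0.0583.

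Of the counts given here, that of rising guides moved most with the libraries. Between 3 and 18 guides of row 1 rose with a library left out: 6 when day 0 replicate 1 was left out, 3 when it was day 0 replicate 2 and 8 when it was day 0 replicate 3. Column 1 had 2 guides that rose, uid_2542 in grid 22 and uid_3268 in grid 28. The first had 254.9, 393.5 and 857.9 at day 14, against 186.4, 226.5 and 170.0 at day 0. The second had 199.8, 349.1 and 543.8 at day 14, against 179.8, 162.0 and 158.8 at day 0. In both, day 14 replicate 3 was the highest value, and without that library neither passed the limma test (adjusted p of 0.112 and 0.139). Neither passed without day 14 replicate 2 or without any single day 0 library.

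Grids 20 numbers apart resembled each other in row 1 as well. In rows 2 to 11, once place means and grid means had been taken out, each of the 19 earlier grids correlated best with the grid 20 numbers later. Row 1 took no part in that match. In row 1, treated the same way over 11 columns, the pairs correlated with a median of 0.55 and a range from -0.07 to 0.87, while the 722 other pairs of grids had a median of -0.04. The partner was the best match of the earlier grid in row 1 in 2 of 19 pairs, so 11 guides did not single it out. All guides share the 6 libraries, and these correlations are descriptions. The column 11 guide fell in both grids of 10 pairs, in neither grid of 6 and in 1 grid of 3 pairs. Both fell in 52.6% and neither in 31.6% of these pairs, against 36.8% and 13.7% of the other pairs of grids. The median distance between column 11 changes was 0.98 within pairs and 1.84 between other grids. Of the guides that fell, 31 fell at the same column in both grids, which is 81.6% of the 38 in the earlier grids and 68.9% of the 45 in the later grids. In the other pairs of grids, where falls also gather in the last columns, the shares were 34.97% and 35.03%.

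Individual pairs show how far this went. Grids 4 and 24 were at -5.55 and -3.99 at column 11 and at -0.86 and -0.36 at column 10, so the step into the last column recurred. Both also fell at columns 8 and 9, at -1.25 and -1.91 in grid 4 and -1.39 and -2.04 in grid 24. Grids 19 and 39 were at -2.09 and -0.84 at column 8 and at -5.36 and -3.76 at column 11. Grids 14 and 34 both fell at columns 9 to 11, with -1.45 and -1.51 at column 7 and 0.19 and -0.13 at column 8. The column 7 guide of grid 34 did not pass the test. Grids 3 and 23 differed more, with -2.28 and -0.63 at column 11, and the second did not pass the test. Grids 17 and 37 were at 0.30 and 1.40, grids 2 and 22 at 0.83 and 0.35, grids 9 and 29 at -0.07 and -1.06, and among the later grids of these 3 pairs the guide of grid 29 fell, that of grid 37 rose and that of grid 22 did not pass the test.

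Row 1 was set against row 11 at the same column and grid to see how much of the loss it held. Row 1 averaged 0.13 at column 1, -0.26 at column 5, -0.60 at column 8 and -1.69 at column 11, and row 11 averaged -0.35, -3.65, -4.62 and -5.37 at these columns. The difference, row 11 less row 1, was -0.48 at column 1, -2.09 at column 2, -3.39 at column 5, -4.33 at column 10 and -3.67 at column 11. By limma the row 11 guide changed lower than the row 1 guide in 333 of 429 cases, or 77.6%, against 55.2% of all contrasts of a later row with row 1. At column 1 this held in 8 of 39 grids, at column 2 in 27 and at column 10 in 37. The gap between the rows was therefore small at column 1 and large from column 2 on. Over all guides, 482, 469 and 472 lay at the lowest level of day 14 replicates 1, 2 and 3. Of these, 2, 0 and 0 were in row 1, and those in row 11 were not counted. The floor may thus bound row 11, so the sizes of the large gaps and their differences between late columns are uncertain. Row 1 averaged 0.09 at column 2 and -1.69 at column 11, and row 2 averaged -0.72 and -2.66. The contrast of row 2 with row 1 passed in 8 of 39 grids at column 2 and in 12 at column 11.

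The last guide of row 11 fell in 39 of 39 grids, whatever the end of row 1 did. In the 15 grids whose column 11 guide of row 1 did not fall, that guide had a median change of 0.24 and ranged from -0.75 to 1.40. In the same 15 grids the last guide of row 11 had a median of -5.00 and ranged from -6.48 to -1.20. The column 11 guide of row 2 fell in 7 of these 15 grids and in 23 of the other 24. In the 24 grids whose row 1 guide fell at column 11, that guide had a median of -2.73 and the last guide of row 11 a median of -5.96. These 2 sets of grids were split by the row 1 value itself, so the distance from row 1 to row 11 is not compared between them. The end of row 1 averaged -1.69 ± 0.05, and the end of column 1, which shares its first guide with row 1, averaged -0.35 ± 0.09 (SD over 3 libraries). Both ends fell in 5 grids, the end of row 1 alone in 19, that of column 1 alone in 6, and neither in 9.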

How the data were processed

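Guide amplicons from genomic DNA of 6 RfxCas13d A375 libraries were analysed, 3 at day 14 and 3 at day 0. The deposited values are normalised signal per guide, scaled by the authors in a way not given in the sources used here. Cutadapt 1.13, Bowtie 1.1.2 and the build GRCh38 are named, per the submitters' processing notes. After 1 was taken off, 100% of values were whole multiples of a step particular to the library, within a tolerance of 0.01 of a read, which gave the reads. Whether the lowest level stands for 0 or 1 reads is not settled.

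Log2 signal, as deposited with no pseudocount, was fitted with limma 3.58.1 in R 4.3.3, day 14 against day 0, with a variance trend and a minimum mean signal of 10, which removed 0 guides. A guide was called at a Benjamini-Hochberg adjusted p under 0.05 over all 6211 guides, or over all contrasts of a guide with column 1 of its row, or with row 1 of its column. The fits were tested on simulated data. Values per column are means over grids per library. P-values measure the spread between infection replicates, which differed by more than counting noise (a chi-square of 6.39 to 28.9 per guide between libraries of a day). Grids were ordered by their mean over columns 9 to 11 of row 1: the 4 lowest, the 3 in the middle and the 4 highest were described, with their counterparts 20 numbers away, the 5 guides with the lowest adjusted p among those that rose, column 1 guides that were called, the grid with the earliest onset and the grid with the largest step. Other guides and grids were named after their values were seen. The members, the grids and the pairs of grids were chosen with earlier results of these data known. Alternatives were other scalings, pseudocounts, filters, variance priors, a replicate block, voom on recovered reads and each library left out. Same-numbered libraries of the days did not deviate together, so no block was used. The other 3 tables hold other libraries and were not used here.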

Additional observations from a re-analysis of the deposited data

How the results depend on the processing

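The comparison of a guide with column 1 of its row (87 lower) and of row 11 with row 1 (333 lower) did not change with scaling, and under the other alternatives run they gave between 60 and 99 and between 303 and 339. Counts on the deposited scale did depend on scaling. With trimmed-mean scaling, whose factors moved by -1.41 between the days, 30 guides of row 1 fell, 269 rose, and 13 column 11 guides fell. With total signal, whose factors moved by -0.77, 48 fell and 134 rose. With an absolute log2 change of at least 1, 8 rose. The mean at column 11 was -1.69, and it was -0.28 with the trimmed mean, -0.92 with total signal, -1.64 and -1.38 with pseudocounts of 1 and 10, -1.75 with the added 1 removed and -1.80 with voom on reads less 1. With a library left out it lay between -1.72 and -1.64, while between 68 and 100 guides fell, 3 to 18 rose and 22 to 25 column 11 guides fell. With the trimmed mean, uid_1221 was at 0.062 and uid_0979 at 1.34, on the other side of 0. Of 324 checks of 18 of the guides named here, 29 ended a call, 23 of them of rising guides. The other guides named, among them uid_0374 and uid_0730, were not among these 18. Same-numbered libraries correlated at 0.0036, 0.0287 and 0.0126 in their deviations over all guides. No pairing by number was seen, though the noise between libraries of a day could hide one. With a replicate block 93 guides fell, 13 rose, 24 column 11 guides fell, and the contrasts gave 84 and 329, and the block ended the call of uid_0132. The added 1, voom and a trend on mean abundance were chosen after seeing the data. The planned count tests in edgeR and DESeq2 were not run, and voom on the recovered reads was run in their place. Guides with few reads at day 14 limit the size of the largest falls.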

Other observations

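In 14 places of row 1 a guide fell while the guides at the columns just before and just after it did not. They were spread over 12 grids. The most marked were uid_1580 at column 7 of grid 14, at -1.45 between neighbours at 0.02 and 0.19, uid_0494 at column 10 of grid 5, at -1.62 between -0.22 and 0.31, and uid_2788 at column 5 of grid 24, at -1.23 between -0.01 and -0.15. At uid_2428 and uid_3876 the next guide lay within 0.04 of the same change and missed the threshold. These guides were named after their values were seen. Their calls are on the deposited values, and trimmed-mean scaling would raise each change by 1.41.

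The 4 guides of grid 11 and the 4 of grid 31 that rose stood at the same even columns, while columns 3 and 5 between them had changes from 0.46 to 0.94 that did not pass the limma test. In rows 2 and 6 of these grids 1 and 1 guides rose in grid 11 and 3 and 1 in grid 31, and in row 11 none did while 5 fell in each. The difference between even and odd columns was not tested.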
